A study of Mus musculus with 42 samples.

Results

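Lung RNA was measured here for 10 genes of protein folding and stress in the endoplasmic reticulum (ER): Hspa5, Hsp90b1, Calr, Pdia4, Sdf2l1, Creld2, Dnajb9, Herpud1, Atf4 and Ddit3. They were taken by gene name from the deposited table, where 11 of 54532 rows bear these names. The extra row is a second Ddit3 entry (ENSMUSG00000116429, chr10:127290829-127293753, 105 bases long) that was at 0 in each of the 42 libraries and was not tested. All 10 genes passed the filter on low values, a mean of at least 0.5 FPKM (a read count per library and per kilobase of the gene) over the 42 libraries, which left 16962 genes for testing. The animals were wild-type C57BL/6J mice under a daily light cycle, with lights on at clock hour 8 (zeitgeber time ZT0) and off at clock hour 20 (ZT12). SD mice spent 20 h of each of 2 days (clock hour 14 to 10) in SD cages, which the series title links to sleep deficiency, and Ctrl mice were kept in home cages. Lungs were taken every 4 h from ZT0 to ZT24, so that 7 SD groups and 7 Ctrl groups of 3 libraries each could be compared time by time. The age and sex of the animals, and the interval between the last cage period and the first collection, are not stated in the labels.

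The ER is where secreted and membrane proteins are folded. When unfolded protein builds up, the sensors IRE1 (Ern1), PERK (Eif2ak3) and ATF6 start the unfolded protein response: IRE1 splices Xbp1 RNA, ATF6 is cut to an active factor, and PERK phosphorylates the initiation factor eIF2-alpha, which favours translation of ATF4. XBP1 and ATF6 raise transcription of chaperones and of genes of ER-associated degradation, whereas ATF4 raises genes of amino acid supply and, in longer stress, Ddit3 (CHOP). In the lung, the secretory load on this system is known to be high in surfactant-making alveolar type 2 cells, in mucous cells of the airway and in antibody-secreting plasma cells.

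Recovered depth was 25285525 to 29790252 reads per library, and the 10 genes were well covered, with 176 reads (Sdf2l1) to 19563 reads (Hspa5) behind a value. The 8 markers that define lung were above 0 in every library (Sftpc at 14807 FPKM or more, Foxj1 at 33.5 FPKM or more). Libraries of 1 group are biological replicates by label, but not stated to be single animals or pools, so the p-values below measure only the spread between libraries, which was small. In bulk tissue, fewer cells of a type and less RNA per cell cannot be told apart. Differences are SD minus Ctrl on the log2(FPKM + 1) scale, and adjusted p-values are from limma with Benjamini-Hochberg adjustment over the 16962 genes.

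The comparison of SD with Ctrl over the 7 times asks which of these genes differed with SD caging when every collection time counts equally. The 6 genes whose products fold proteins in the ER lumen were lower in SD lungs. The other 4 (the degradation genes Herpud1 and Dnajb9 and the transcription factors Atf4 and Ddit3) were higher. Dnajb9 also codes for a cochaperone of BiP, so the match of role and direction depends on placing it with degradation. The genes were chosen with earlier results of these data known, and the 6 folding genes below are a description. Averaged over the 7 times, the difference was largest for Sdf2l1, at -1.12 ± 0.0360 (SE, here and below), followed by Pdia4 at -0.65 ± 0.0153, Calr at -0.48 ± 0.0133, Hspa5 at -0.46 ± 0.0139, Hsp90b1 at -0.46 ± 0.0168 and Creld2 at -0.35 ± 0.0257. Herpud1 was higher by 0.67 ± 0.0102, Dnajb9 by 0.25 ± 0.0200, Atf4 by 0.23 ± 0.0136 and Ddit3 by 0.16 ± 0.0227. The adjusted p-values (limma) ran between 2.69e-32 for Herpud1 and 1.65e-07 for Ddit3. The 4 higher and 6 lower calls stand against a background in which 34.6% of all tested genes were called higher and 35.3% lower, so that a call alone sets none of the 10 apart; the median difference of the 10 was -0.40, against -0.0033 for all genes tested. With the 14 group means as units in place of libraries, Creld2 (adjusted p = 0.0559, limma) and Ddit3 (adjusted p = 0.195) were no longer called, and the other 8 were. Scaled by total reads, the share of higher genes among all called was 33.8% in place of 49.5%, and the 10 genes kept their calls and directions.

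Hspa5 (ENSMUSG00000026864, chr2:34771970-34777547, plus strand, mm10) codes for BiP, the HSP70 chaperone of the ER lumen that also holds the stress sensors inactive. At ZT0 it had 61.2, 66.1 and 62.8 FPKM in the 3 SD lungs, against 130.4, 125 and 129 FPKM in the Ctrl lungs. At ZT4 the values were 85.1, 87.0 and 84.6 FPKM in SD and 75.4, 77.9 and 75.0 FPKM in Ctrl. Thus all SD values lay below all Ctrl values at ZT0 and above them at ZT4, 4 h later. At ZT8 the SD libraries had 67.1, 64.3 and 61.5 FPKM and the Ctrl libraries 87.5, 86.0 and 88.2 FPKM. At ZT12 they had 68.4, 70.0 and 70.9 FPKM in SD and 117, 119 and 122 FPKM in Ctrl. The widest gap in FPKM after ZT0 was at ZT16, with 104, 104 and 104 FPKM in SD and 164, 165 and 161 FPKM in Ctrl. SD libraries were the lower ones at all of these 3 times, and no values of the 2 conditions overlapped. At ZT20 Hspa5 stood at 80.6, 80.4 and 79.5 FPKM in SD and 83.5, 97.4 and 84.8 FPKM in Ctrl, and at ZT24 at 103, 98.7 and 98.3 FPKM in SD and 135, 133 and 135 FPKM in Ctrl. At ZT20 the nearest SD and Ctrl libraries were close, and 1 Ctrl library (replicate 2) was well above the other two. Without that library the difference at ZT20 was -0.069 (adjusted p = 0.0499, limma). The difference was -1.01 ± 0.0368 at ZT0 (adjusted p = 1.21e-20, limma), 0.17 ± 0.0368 at ZT4 (adjusted p = 0.000476) and -0.14 ± 0.0368 at ZT20 (adjusted p = 0.00162). The ZT20 call was lost (adjusted p = 0.108) when the spread came only from the 6 libraries of that time. In the order of the 14 group means, Ctrl at ZT16, ZT24, ZT0 and ZT12 led, each apart from the next, and SD at ZT8 and ZT0 came last and overlapped each other.

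Sdf2l1 (ENSMUSG00000022769, chr16:17130138-17132383, minus strand), a small ER protein that works with the BiP cochaperone DNAJB11 to keep clients soluble, had the widest range of the 10 genes. Its 3 libraries had 7.74, 8.17 and 6.22 FPKM in SD and 21.1, 21.2 and 21.1 FPKM in Ctrl at ZT0. At ZT4 they had 12.2, 11.1 and 13.1 FPKM in SD and 12.5, 12.2 and 11.7 FPKM in Ctrl, where the values overlapped. At ZT16 they had 14.3, 16.9 and 14.2 FPKM in SD and 55.3, 45.7 and 47.9 FPKM in Ctrl. Every SD library was below every Ctrl library at ZT0 and ZT16, and the same held at ZT8, ZT12, ZT20 and ZT24. The difference was -1.60 ± 0.0954 at ZT8, -1.54 ± 0.0954 at ZT12 and -1.65 ± 0.0954 at ZT16, against -0.0017 ± 0.0954 at ZT4 (adjusted p = 0.992, limma). Between the lowest group mean (SD at ZT8, 6.90 FPKM) and the highest (Ctrl at ZT16, 49.6 FPKM) lay a ratio of 7.19, against 1.51 for Dnajb9, the flattest of the 10.

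Calr, Hsp90b1, Pdia4 and Creld2 followed a course close to that of Hspa5 and Sdf2l1, with the widest FPKM gap at ZT16, and differed from them and from one another mainly at ZT4 and ZT24. Calr (ENSMUSG00000003814, chr8:84841850-84846934, minus strand) codes for calreticulin, a calcium-binding chaperone of glycoproteins. It had 77.2, 77.9 and 77.3 FPKM in SD and 136, 129.9 and 137 FPKM in Ctrl at ZT0, and 107, 111 and 111 FPKM in SD and 94.0, 95.6 and 95.6 FPKM in Ctrl at ZT4. As for Hspa5, SD was lower at ZT0 (-0.78 ± 0.0353) and higher at ZT4 (0.21 ± 0.0353, adjusted p = 2.00e-05, limma), with no overlap of values at either time. From ZT8 on it was lower in SD at each time, with differences of -0.46 at ZT8, -0.69 at ZT12, -0.78 at ZT16, -0.57 at ZT20 and -0.29 at ZT24.

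Hsp90b1 (ENSMUSG00000020048, chr10:86690209-86705509, minus strand), the HSP90 chaperone of the ER (GRP94), averaged 74.6 ± 0.107 FPKM in SD and 119 ± 4.22 FPKM in Ctrl at ZT0 (standard deviation, n = 3 each). It stayed lower in SD at ZT4 (-0.24 ± 0.0443, adjusted p = 4.71e-05, limma), and at ZT24 it averaged 116 ± 3.95 FPKM in SD and 117 ± 5.51 FPKM in Ctrl. At ZT24 the values overlapped and the difference of -0.005 ± 0.0443 was not called (adjusted p = 0.941). Gm15344 overlaps Hsp90b1 on the same strand (mean 4.86 FPKM), and the labels do not state how reads of overlapping genes were assigned. Pdia4 (ENSMUSG00000025823, chr6:47796141-47813430, minus strand), a protein disulfide isomerase, averaged 37.6 ± 0.0418 FPKM in SD and 75.5 ± 1.45 FPKM in Ctrl at ZT16. Overlap of SD and Ctrl values, here and elsewhere, was counted in the 10 genes alone, with no share of all genes beside it. Pdia4 was the only one of the 10 with every SD value below every Ctrl value at all 7 times. The smallest of its differences, -0.11 ± 0.0405 at ZT4 (adjusted p = 0.0387, limma), was lost when any of 4 libraries of that time was left out (SD replicate 1 or 2, Ctrl replicate 2 or 3). Creld2 (ENSMUSG00000023272, chr15:88819646-88826683, plus strand), a cysteine-rich ER protein induced by ER stress, averaged 36.7 ± 2.96 FPKM in SD and 65.6 ± 5.10 FPKM in Ctrl at ZT16. Its ZT20 call was lost without Ctrl replicate 2. Its values overlapped at ZT4 (0.022 ± 0.0679, adjusted p = 0.825) and at ZT24 (0.0052 ± 0.0679, adjusted p = 0.96).

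**Figure D1:**
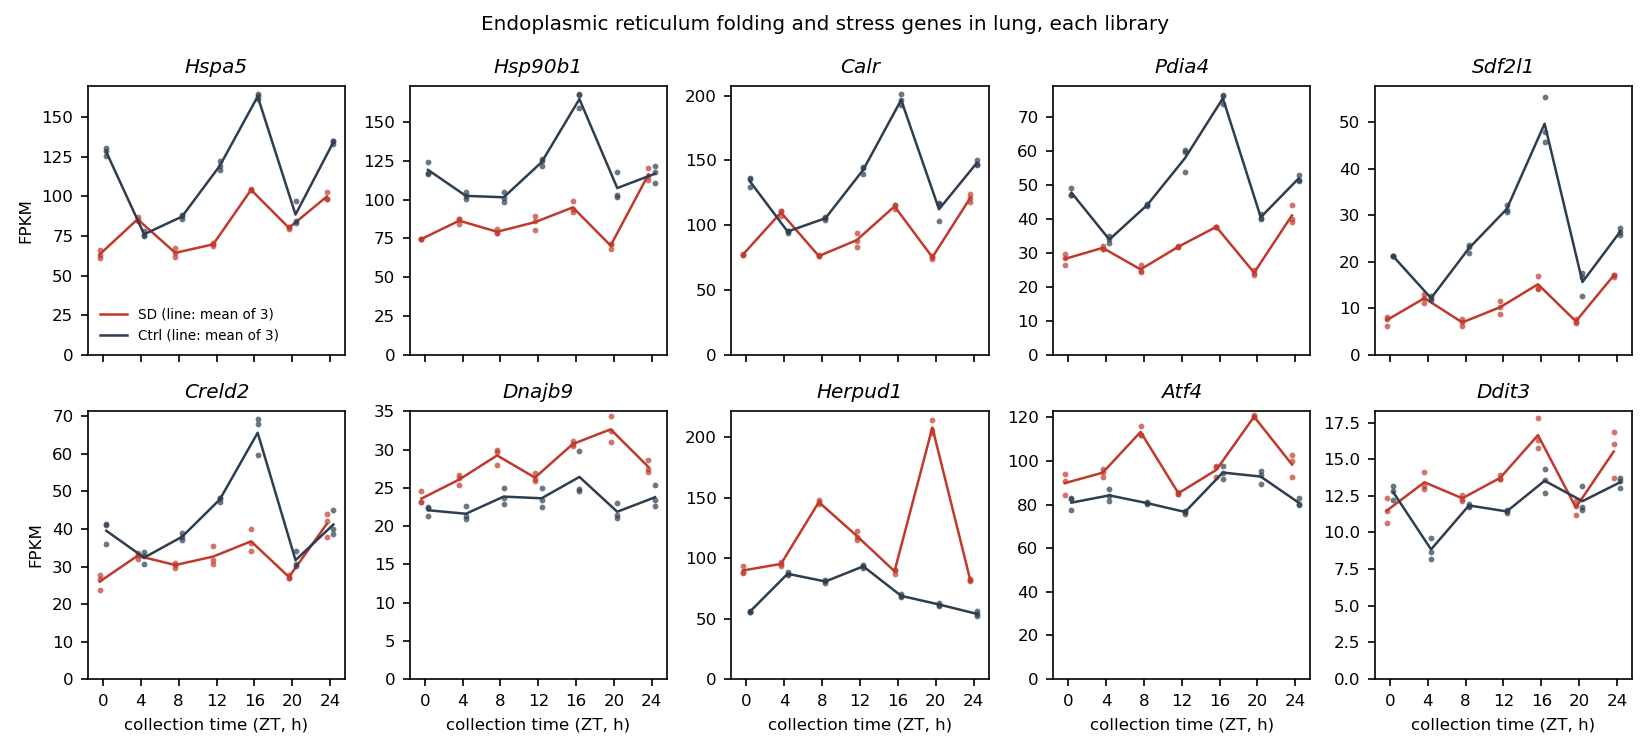
Level of each of the 10 genes in FPKM (vertical axis, from 0) by collection time (ZT in h); points are libraries, lines join the means of 3 libraries, SD in red and Ctrl in dark blue. In the first 6 panels the SD line runs below the Ctrl line at most times and meets or crosses it at ZT4 for Hspa5, Calr, Sdf2l1 and Creld2, while Herpud1 in SD stands out at ZT8 and ZT20, with means of 146 and 208 FPKM.

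As a group the 6 folding genes had a median difference of -0.76 at ZT0, 0.010 at ZT4, -0.45 at ZT8, -0.73 at ZT12, -0.81 at ZT16, -0.59 at ZT20 and -0.31 at ZT24. ZT4 was thus the time with the smallest median difference in size. Called rises (Hspa5 and Calr) and called falls (Hsp90b1 and Pdia4) offset each other in it. Singly, Hsp90b1 (-0.005) and Creld2 (0.0052) lay closest at ZT24 and Hspa5 (-0.14) at ZT20. ZT4 was also the time of the lowest Ctrl mean for Hspa5, Pdia4, Calr and Sdf2l1. At ZT0 the calls over the 10 genes were 2 higher and 6 lower (all genes: 18% higher, 19.7% lower). At ZT4 they were 6 higher and 2 lower (all genes: 19.2% and 20.1%); Hspa5 and Calr joined Dnajb9, Herpud1, Atf4 and Ddit3 on the higher side, and Hsp90b1 and Pdia4 were the lower ones. The ZT8 calls were 3 higher and 6 lower (27.1% and 28.9%), those at ZT12 were 4 and 6 (24.4% and 24.4%), those at ZT16 were 3 and 6 (29.1% and 27.1%), those at ZT20 were 3 and 6 (33% and 28.4%) and those at ZT24 were 4 and 4 (24.4% and 22.3%). The 6 lower calls at ZT0, ZT8, ZT12, ZT16 and ZT20 were the 6 folding genes each time. The difference between SD and Ctrl itself differed between the times for 10 of 10 genes (F test of the 6 interaction contrasts), as it did for 81.7% of all genes tested. Scaled by total reads, the share of higher genes among all called was 33.9% at ZT8 (48.4% as deposited), 29.7% at ZT20 (53.8%) and 33.6% at ZT24 (52.2%), and at ZT20 the median of all genes moved to -0.14, against 0.017 as deposited.

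Across the 14 group means the 15 pairs of the 6 folding genes had Pearson correlations between 0.871 and 0.990, between 0.716 and 0.984 over the 7 SD groups and between 0.851 and 0.986 over the 7 Ctrl groups. The likeness was not limited to the 6: Ddit3 stood between 0.827 and 0.927 with them over the SD groups, and Dnajb9 between 0.706 and 0.936 over the Ctrl groups. These are descriptions over means that share libraries, and no p is attached.

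The promoters of the 10 genes were searched for the letters of the ER stress response element (ERSE). ATF6, with the factor NF-Y, and XBP1 are known to bind this site. The windows are those of RefSeq on GRCm38.p6 (mm10), 250 bases before to 50 bases from each transcription start, and all 10 genes had an entry; the RefSeq start need not be the start in the deposited table. ERSE was searched as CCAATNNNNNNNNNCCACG on both strands, where N is any base. It was found in 4 of the 10 promoters (Hspa5, Hsp90b1 with 2 matches, Calr and Creld2), and in 39 of all 32851 promoter windows of this length (0.119%). The shorter ERSE-II, ATTGGNCCACG, was found in Herpud1 and in 12 of all windows (0.0365%). ERSE is a known site of the ER stress response, and the 10 genes were chosen as genes of ER folding and stress. Matches among them are thus no independent finding beside the shares of all windows. Any part of these sites in the courses of the genes was not tested. The matches are printed 5′ to 3′ on the strand that reads as the motif, with its fixed letters in capitals.
Hspa5, 65 to 47 bases before the start: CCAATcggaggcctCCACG
Hsp90b1, 212 to 194 bases before: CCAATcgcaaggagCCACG
Hsp90b1, 107 to 89 bases before: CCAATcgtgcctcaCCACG
Calr, 162 to 144 bases before: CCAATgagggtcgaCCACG
Creld2, 126 to 108 bases before: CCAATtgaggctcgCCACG
Herpud1 (ERSE-II), 52 to 42 bases before: ATTGGgCCACG
The matches in Hspa5 (chr2:34772025-34772043) and in Herpud1 (chr8:94386377-94386387) lie nearest to their starts. No window of Pdia4 or Sdf2l1, the other 2 folding genes, held these letters, which says only that the exact letters are not in these windows. The 250 bases before the Hspa5 start (chr2:34771840-34772089, plus strand) are printed because they hold the match closest to a start among the folding genes, which is in capitals.
Hspa5 promoter: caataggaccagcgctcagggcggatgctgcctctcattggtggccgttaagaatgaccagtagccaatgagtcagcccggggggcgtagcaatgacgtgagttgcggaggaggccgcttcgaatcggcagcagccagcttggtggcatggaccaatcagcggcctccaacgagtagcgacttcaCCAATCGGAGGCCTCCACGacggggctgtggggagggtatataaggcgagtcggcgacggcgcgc
Of 3 other motifs searched on both strands, the unfolded protein response element TGACGTGG was in 0 of the 10 windows and in 222 of all (0.676%), and the ATF4 site TTGCATCA was in Herpud1 and in 294 of all (0.895%). The E-box CACGTG, a palindrome that clock factors bind, was in Calr and Dnajb9 and in 2349 of all windows (7.15%). No matches overlapped one another.

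**Figure D2:**
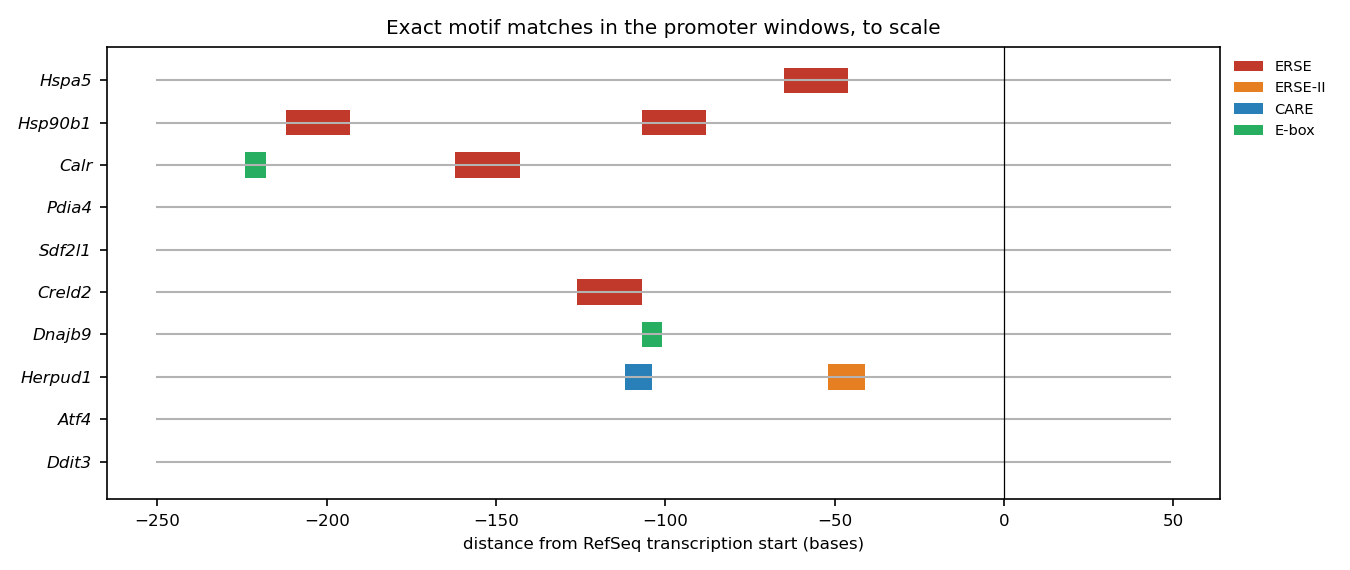
Exact motif matches (coloured boxes) in the promoter windows of the 10 genes; the horizontal axis is the distance in bases from the RefSeq transcription start (0, vertical line), and each grey line is 1 window of 300 bases. ERSE boxes appear in Hspa5, Hsp90b1, Calr and Creld2, and the ERSE-II and ATF4 site (CARE) boxes in Herpud1 alone.

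Herpud1 (ENSMUSG00000031770, chr8:94386438-94395377, plus strand) codes for a membrane protein of the ER with a ubiquitin-like domain, which is part of the complex that sends misfolded proteins to the proteasome. It had the highest average difference of the 10, opposite in direction to that of the folding genes. Over the 7 SD groups its means had correlations between -0.81 (Pdia4) and -0.38 (Hspa5) with those of the 6 folding genes, and over the 7 Ctrl groups between -0.43 (Hspa5) and 0.045 (Creld2), as descriptions with no p. At ZT20 its libraries had 214, 206 and 204 FPKM in SD and 63.1, 60.5 and 61.6 FPKM in Ctrl. At ZT8 they had 148, 147 and 145 FPKM in SD and 81.9, 79.5 and 80.8 FPKM in Ctrl, and at ZT0 87.7, 93.5 and 88.5 FPKM in SD and 55.7, 55.9 and 55.2 FPKM in Ctrl. At all of these times the SD values were far above the Ctrl values. At ZT4 they were closer, with 93.3, 97.0 and 95.5 FPKM in SD and 86.6, 88.6 and 86.1 FPKM in Ctrl. The ZT12 libraries had 122, 118 and 115 FPKM in SD and 94.6, 93.4 and 91.8 FPKM in Ctrl. At ZT16 the values were 90.0, 90.5 and 87.1 FPKM in SD and 68.3, 70.0 and 68.2 FPKM in Ctrl. SD and Ctrl libraries overlapped at none of the 7 times, ZT24 included (82.6, 82.3 and 81.3 FPKM in SD and 53.5, 56.1 and 52.3 FPKM in Ctrl). The difference was 1.74 ± 0.0271 at ZT20 (adjusted p = 4.27e-31, limma), 0.85 ± 0.0271 at ZT8, 0.68 ± 0.0271 at ZT0 and 0.13 ± 0.0271 at ZT4 (adjusted p = 0.000305). The order of its group means was led by SD at ZT20, ZT8 and ZT12, each apart from the next, and Ctrl at ZT0 and ZT24 came last and overlapped. An antisense gene, Gm15890, overlaps Herpud1 at a mean of 0.874 FPKM, and its reads cannot be told apart from those of Herpud1 without the strand setting. The 250 bases before the RefSeq start of Herpud1 (chr8:94386179-94386428, plus strand) are printed because the averaged difference of this gene was opposite to that of the folding genes; capitals mark the ATF4 site letters and, nearer the start, the ERSE-II letters.
Herpud1 promoter: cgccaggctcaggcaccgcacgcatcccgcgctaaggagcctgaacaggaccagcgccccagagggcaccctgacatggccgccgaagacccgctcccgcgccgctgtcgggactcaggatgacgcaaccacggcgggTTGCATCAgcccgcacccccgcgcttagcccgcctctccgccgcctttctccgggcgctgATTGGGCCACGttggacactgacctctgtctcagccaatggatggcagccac

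Dnajb9 (ENSMUSG00000014905, chr12:44205559-44210326, minus strand), the BiP cochaperone ERdj4 that takes part in ER-associated degradation and holds back IRE1, differed least between groups, with group means from 21.6 FPKM (Ctrl at ZT4) to 32.7 FPKM (SD at ZT20). All 3 SD values were above all 3 Ctrl values at each of the 7 times. At ZT20 it had 34.4, 32.5 and 31.1 FPKM in SD and 21.4, 23.1 and 21.1 FPKM in Ctrl, which was its widest gap (0.56 ± 0.0529, adjusted p = 9.03e-11, limma). At ZT0 it had 23.1, 23.1 and 24.6 FPKM in SD and 21.3, 22.4 and 22.5 FPKM in Ctrl, a difference of 0.092 ± 0.0529 that was not called (adjusted p = 0.182). With scaling by total reads, its calls at ZT12 (adjusted p = 0.119) and ZT24 (adjusted p = 0.0625) were lost, and the ZT12 call was also lost without SD replicate 1 or Ctrl replicate 3 of that time.

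Atf4 (ENSMUSG00000042406, chr15:80255184-80257541, plus strand) codes for the factor at the end of the PERK arm and is known to be controlled to a large part at translation, which RNA levels do not show. Its RNA was higher in SD at 6 of 7 times by the test, of which the ZT0 call was lost (adjusted p = 0.0622, limma) when the spread came only from the 6 libraries of that time. At ZT20 it had 120.1, 121 and 119.9 FPKM in SD and 93.7, 95.6 and 89.2 FPKM in Ctrl, and at ZT8 116, 112 and 112 FPKM in SD and 81.2, 80.2 and 80.6 FPKM in Ctrl. The SD values were higher without overlap at both times, the same pair of times at which Herpud1 was highest. At ZT16 they were 92.6, 97.6 and 97.4 FPKM in SD and 94.4, 97.7 and 91.9 FPKM in Ctrl and overlapped. The difference was 0.49 ± 0.0359 at ZT8 (adjusted p = 2.84e-13, limma), 0.37 ± 0.0359 at ZT20 (adjusted p = 1.38e-10) and 0.018 ± 0.0359 at ZT16 (adjusted p = 0.701), and scaling by total reads turned the last one to -0.041.

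Ddit3 (ENSMUSG00000025408, chr10:127290774-127296288, plus strand) codes for CHOP, a factor that promotes cell death in lasting ER stress. Its mean over all libraries was the lowest per length of the 10, with group means between 8.84 FPKM (Ctrl at ZT4) and 16.6 FPKM (SD at ZT16). At ZT4 it had 14.1, 13.2 and 12.95 FPKM in SD and 8.69, 9.65 and 8.19 FPKM in Ctrl. At ZT16 it had 15.8, 17.8 and 16.3 FPKM in SD and 13.6, 12.7 and 14.3 FPKM in Ctrl, and at ZT0 10.7, 11.4 and 12.4 FPKM in SD and 12.2, 12.9 and 13.2 FPKM in Ctrl. SD was above Ctrl without overlap at ZT4 and ZT16, and the values overlapped at ZT0. The difference was 0.55 ± 0.0602 at ZT4 (adjusted p = 6.26e-09, limma), 0.28 ± 0.0602 at ZT16 and 0.24 ± 0.0602 at ZT12. It was not called at ZT0 (-0.14, adjusted p = 0.0643), ZT8 (0.054, adjusted p = 0.47) or ZT20 (-0.047, adjusted p = 0.516). Scaled by total reads, ZT0 (-0.18, adjusted p = 0.0156) and ZT20 (-0.24, adjusted p = 0.000503) were called lower in SD, and ZT24 was no longer called (adjusted p = 0.142), which also happened without SD replicate 1 at ZT24. Mars (mean 11.7 FPKM) and Gm4189 (mean 1.68 FPKM) overlap Ddit3 on the opposite strand, and without the strand setting their reads cannot be told apart.

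**Figure D3:**
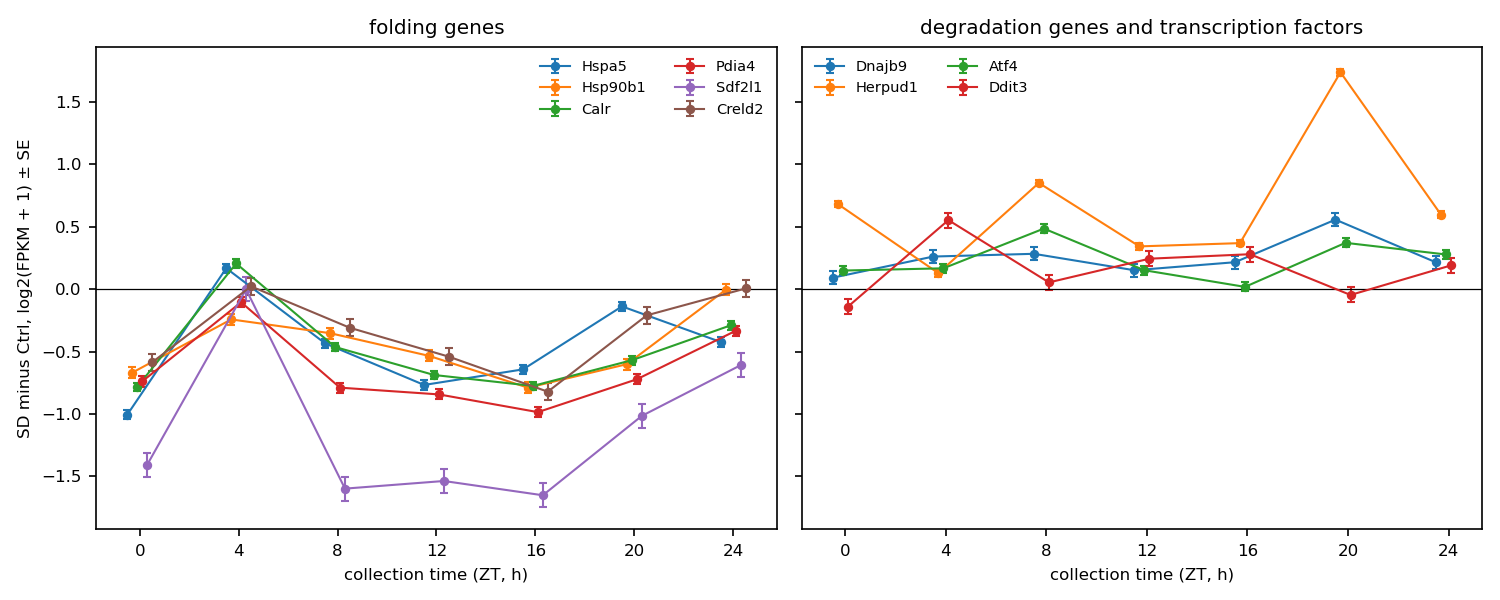
SD minus Ctrl in log2(FPKM + 1) units (vertical axis, bars are standard errors of the 14-group model) by collection time (ZT in h), with 6 folding genes on the left and 2 degradation genes and 2 transcription factors on the right. The folding genes lie below 0 at ZT0, ZT8, ZT12, ZT16 and ZT20, with Sdf2l1 lowest at -1.65 (ZT16), and Herpud1 peaks at 1.74 (ZT20).

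The collection over 24 h also asks for a daily profile. In Ctrl, 9 of 10 genes (all but Dnajb9) had a 24 h rhythm by harmonic regression in limma (57.6% of all genes). In SD it was 0 of 10 (9.2% of all genes), with 1 gene, Dnajb9, at an unadjusted p under 0.05. With array weights 3 were called (Hspa5, Dnajb9 and Ddit3), as were 3909 of all 16962 genes. In Ctrl the folding genes peaked between 14.8 h after ZT0 for Creld2 and 17.5 h for Hspa5, around the early to middle dark phase. Sdf2l1 had the largest amplitude, 0.58 ± 0.139 log2 units (adjusted p = 0.00442, limma), and Hspa5 had 0.32 ± 0.103 (adjusted p = 0.0342). The Hspa5 call was lost without any 1 of the 9 Ctrl libraries at ZT4, ZT8 or ZT16, and that of Ddit3 without any 1 of the 3 at ZT4; without the filter on low values both were lost (adjusted p = 0.0779 for Hspa5 and 0.051 for Ddit3). Herpud1 peaked earlier, at 9.65 h, with an amplitude of 0.36 ± 0.0428 (adjusted p = 3.30e-06). Atf4 peaked at 18.3 h with a small amplitude of 0.11 ± 0.0304, a call that was lost with array weights (0.074, adjusted p = 0.105, limma).

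The difference of the rhythm between SD and Ctrl, tested directly in limma, was called for 0 of 10 genes (30.3% of all genes). In the same test 5 of the 10 (Hsp90b1, Pdia4, Calr, Sdf2l1 and Creld2) had an unadjusted p under 0.05. The share of all genes is at the adjusted p, here and beside the other unadjusted counts. None at the unadjusted p was counted. A rhythm lost in SD was thus not shown. With the 7 group means as units, 0 of 10 genes were called rhythmic in Ctrl as well (lowest adjusted p = 0.106, Herpud1). The SD levels were not flat: a one-way F test over the 7 times called 10 of 10 genes in SD. How many of all genes this test called is not given, so the count does not set the 10 apart. In SD, Calr, Pdia4 and Sdf2l1 each had lower means at ZT0, ZT8 and ZT20 than at ZT4, ZT16 and ZT24. Leaving out any of the 3 Ctrl libraries at ZT20 raised the count of genes with a different rhythm to 3. Leaving out any SD library at ZT16 raised it to 1. With all libraries 30.3% of all genes were called, so 3 of 10 does not set these genes apart. The shares of all genes in the runs with a library left out are not given.

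ZT0 and ZT24 share a clock hour 1 day apart. In SD, 9 of 10 genes were higher at ZT24 than at ZT0 (20.4% of all genes) and 1, Herpud1, was lower (18.2% of all genes). In Ctrl, 3 of 10 were higher, Pdia4, Calr and Sdf2l1 (6.94%), and 0 were lower (5.97%), with 0 at an unadjusted p under 0.05 (limma). Hspa5 averaged 99.9 ± 2.45 FPKM at ZT24 and 63.4 ± 2.49 FPKM at ZT0 in SD (standard deviation, n = 3 each), and 134 ± 1.01 FPKM at ZT24 and 128 ± 2.57 FPKM at ZT0 in Ctrl. Hsp90b1 differed by 0.63 ± 0.0443 between ZT24 and ZT0 in SD and by -0.03 ± 0.0443 in Ctrl. Sdf2l1 differed by 1.11 ± 0.0954 in SD and 0.31 ± 0.0954 in Ctrl. The change over the day was larger in SD than in Ctrl for 7 of 10 genes, the 6 folding genes and Ddit3 (16.8% of all genes), and smaller for 0 of 10 (15.5%), with Herpud1 alone at an unadjusted p under 0.05 (limma, adjusted p = 0.0867). Under scaling by total reads, Herpud1 was called (-0.14, adjusted p = 0.00155), and the share of higher genes among all called in this comparison was 40.3%, against 52% as deposited. The Pdia4 call in Ctrl (adjusted p = 0.0483) was lost with any 1 of 27 of the 42 libraries left out, without any filter on low values (adjusted p = 0.082) and with a pseudocount of 0.1 (adjusted p = 0.0513). Without the filter the Sdf2l1 call in Ctrl was lost too (adjusted p = 0.0525), as it was without Ctrl replicate 1, 2 or 3 at ZT0 or replicate 2 or 3 at ZT24. For Atf4 in SD the change of 0.13 ± 0.0359 was 0.086 without replicate 1 at ZT0 (adjusted p = 0.0756), and it was also not called without replicate 2 at ZT24 or with the spread of only the 6 libraries compared (adjusted p = 0.131).

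Other genes of the pathway, taken from lists and averaged over the 7 times, show how far the division extended. Of all genes tested, 34.6% were called higher and 35.3% lower in this comparison. A count near these shares, here and in the lists below, does not set a list apart. Of 7 genes for the sensors and their factors, 3 were higher, 2 lower and 2 not called, with a median of -0.0017. Ern1, the sensor IRE1, was higher (0.28, 7.19 FPKM in SD and 5.75 FPKM in Ctrl), as were Atf6 (0.053) and Mbtps2, a protease that cuts ATF6 (0.072). Xbp1, the target of IRE1, was lower (-0.18, 74.5 FPKM in SD and 85.3 FPKM in Ctrl), and so was Atf6b, the relative of ATF6 (-0.069). Eif2ak3 (-0.0017, adjusted p = 0.951, limma) and Mbtps1 (-0.014, adjusted p = 0.325) were not called. Scaled by total reads, an alternative added for the lists after the data were seen, 1 of the 7 was higher and 4 lower, and Atf6 turned to -0.013 (adjusted p = 0.503) while Mbtps2 was no longer called (adjusted p = 0.414). Gene-level values do not separate spliced from unspliced Xbp1.

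Among 12 tested of 13 other ER chaperones and cochaperones (Cdnf did not pass the filter), 3 were higher and 6 lower, with a median of -0.076. The largest falls were Serpinh1, the collagen chaperone HSP47 (-0.70, 122.9 FPKM in SD and 194 FPKM in Ctrl), and Manf, a secreted ER stress factor (-0.36). The largest rises were Sec63, a J-domain partner of the translocon (0.21), and the reductase Dnajc10 (0.052), which turned to -0.019 (adjusted p = 0.414) when scaled by total reads. Of 16 protein disulfide isomerases and ER oxidases, 13 were lower and 2 higher, with a median of -0.10. Pdia6 (-0.51) and Fkbp11 (-0.43) fell the most, while Fkbp14, a prolyl isomerase of the ER, was higher (0.95, 9.96 FPKM in SD and 4.48 FPKM in Ctrl), as was Creld1 (0.12). Of 15 genes of the translocon and signal peptidase, 12 were lower and 2 higher, with a median of -0.099; Sec11c (-0.52) and Sec61g (-0.27) fell the most, Sec62 (0.19) rose, and so did Srpr (0.077), which was not called when scaled by total reads (adjusted p = 0.758). The 15 genes of ER-associated degradation were divided, with 4 higher, 7 lower and a median of -0.017. Derl3, a retrotranslocation factor, was lower (-1.10, 0.894 FPKM in SD and 4.16 FPKM in Ctrl), as was the mannosidase-like Edem1 (-0.40), while Herpud2 (0.22) and Os9, a lectin of the degradation complex (0.21), were higher.

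Of 24 tested of 26 targets of PERK, ATF4 and CHOP (Slc7a11 and Fgf21 did not pass the filter), 16 were higher, 7 lower and 1 not called, with a median of 0.24, against -0.0033 for all genes; the counts were the same when scaled by total reads (median 0.17). Ddit4, an inhibitor of mTOR signalling, was higher (1.34, 78.3 FPKM in SD and 23.4 FPKM in Ctrl), as was Slc3a2, the heavy chain of amino acid transporters (0.66). Psat1 (-0.59) and Aldh18a1 (-0.54) fell the most; Psat1 makes serine and Aldh18a1 proline. Phgdh (-0.47), Mthfd2 (-0.48) and Shmt2 (-0.16), enzymes of serine and one-carbon metabolism named after their values were seen, were lower as well, so the list did not move one way. Of 14 cytosolic and mitochondrial heat shock genes, for comparison, 5 were higher and 9 lower, with a median of -0.19. Hspb1 (0.51) and Bag3 (0.34) rose the most, and Hsph1 (-0.35) and Hspe1 (-0.33) fell the most.

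**Figure D4:**
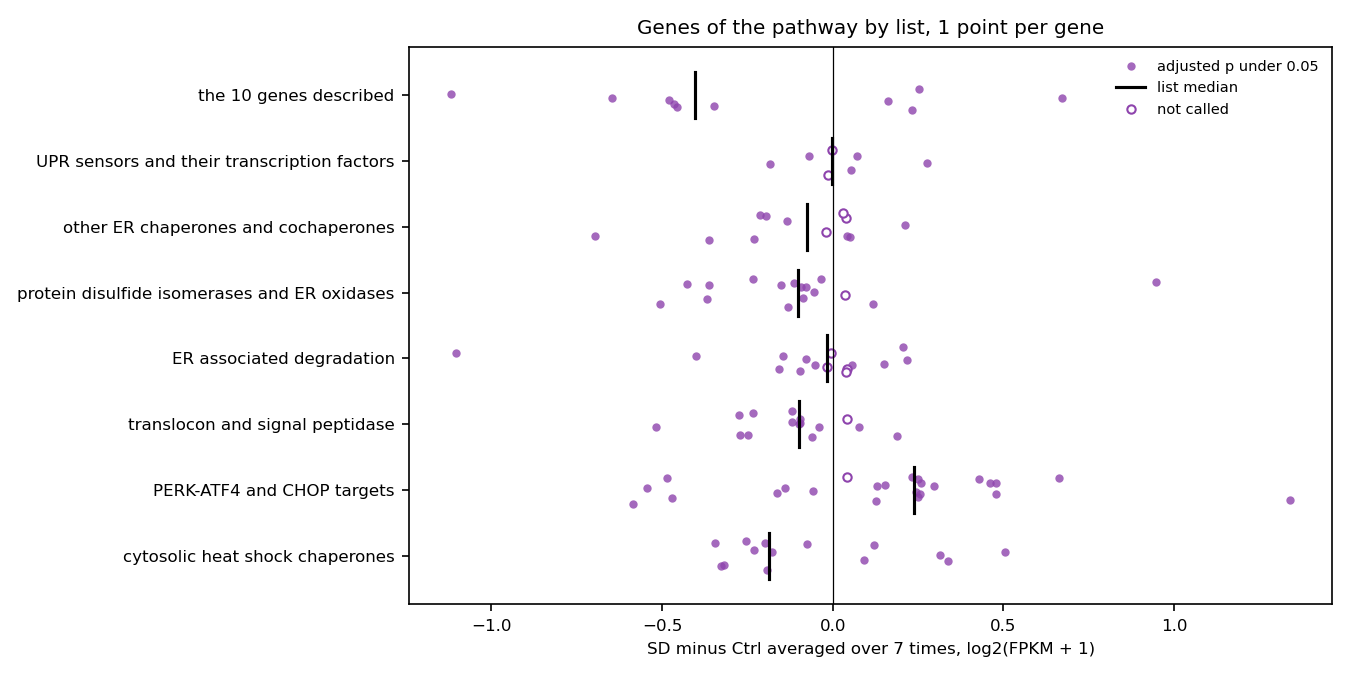
SD minus Ctrl averaged over the 7 times in log2(FPKM + 1) units (horizontal axis) for the genes of each list (rows, 1 point per tested gene); filled points passed the limma test, open points did not, and black bars are list medians. The 10 genes split into 6 points left of 0 and 4 right of it, and the PERK-ATF4 and CHOP targets have the rightmost median of the 8 lists drawn, 0.24.

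Markers of plasma cells, mucous cells and other lung cells also differed between SD and Ctrl, not all in one direction and not alike at all times. All 16 plasma cell markers were lower in SD in the averaged comparison (median -1.92, 35.3% of all genes lower), Ighg2b and Jchain the most (-4.27 and -3.46). Their summed level averaged 203 to 268 FPKM over the 7 SD groups. In Ctrl it averaged 3820 FPKM at ZT8, 5499 FPKM at ZT12, 10018 FPKM at ZT16 and 1324 FPKM at ZT24, but 372 FPKM at ZT0, 351 FPKM at ZT4 and 323 FPKM at ZT20. Tnfrsf17 was at 0 in 2 libraries and the other 15 were at 0 in none. The highest Ctrl means of the folding genes, at ZT16, thus coincided with the highest sum. By limma, 9 of the 16 were lower in SD at ZT0 and none higher, and 8 were lower and 5 higher at ZT20. Of all genes, 19.7% were lower and 18% higher at ZT0, and 28.4% were lower and 33% higher at ZT20. At ZT0, where the sums were 237 to 264 FPKM in the SD libraries and 355 to 380 FPKM in the Ctrl libraries, the folding genes had a median difference of -0.76. At ZT4, with sums averaging 203 FPKM in SD and 351 FPKM in Ctrl, it was 0.010, and at ZT20, with 257 to 266 FPKM in SD and 298 to 345 FPKM in Ctrl, it was -0.59.

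ZT8, ZT12, ZT16 and ZT24 are the times with Ctrl sums of 1324 FPKM or more, and an averaged difference without them was computed for that reason. Without these 4 times the averaged difference kept its direction and its call for all 10 genes. It was -0.33 for Hspa5, -0.50 for Hsp90b1, -0.52 for Pdia4, -0.38 for Calr, -0.81 for Sdf2l1 and -0.26 for Creld2. Herpud1 was at 0.85, Dnajb9 at 0.30, Atf4 at 0.23 and Ddit3 at 0.12 (adjusted p = 0.0115, limma). In this subset 4707 genes were called higher and 4672 lower of the 16962. The plasma cell sums were still lower in SD at ZT0, ZT4 and ZT20. They averaged 248, 203 and 261 FPKM in SD, against 372, 351 and 323 FPKM in Ctrl. The part of plasma cells in the results was therefore not tested by leaving out the other times.

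All 11 mucous airway markers were lower in SD on average (median -1.72; Reg3g -3.95 and Tff2 -3.00 the most), but at ZT0 8 of them were higher and none lower (median 1.07), and at ZT20 5 were higher and none lower. Their summed level averaged 84.3 to 2762 FPKM over the SD groups and 108 to 6971 FPKM over the Ctrl groups, and Dmbt1 was at 0 in 5 libraries. Of 9 fibroblast markers, 6 were lower and 2 higher (median -0.61; Lum -1.17 and Col3a1 -1.16 fell the most, Pdgfra 0.38 and Dcn 0.18 rose), with sums of 120.0 to 190 FPKM in SD and 166 to 304 FPKM in Ctrl, and none was at 0. Of 10 alveolar type 2 markers, 7 were higher and 2 lower (median 0.14; Sftpb 0.46 and Sftpa1 0.36 rose the most, Etv5 -0.16 and Lamp3 -0.074 fell), with sums of 22648 to 28025 FPKM in SD and 19218 to 25694 FPKM in Ctrl. All 9 neutrophil markers were higher (median 1.03; Retnlg 1.91 and Il1r2 1.53 the most), with sums of 539 to 1282 FPKM in SD and 229 to 920 FPKM in Ctrl. Their medians were highest at ZT20 (2.28) and ZT8 (1.85), the times of the highest Herpud1 means in SD. At ZT24 7 of the 9 were lower (median -0.62), against 22.3% of all genes. The part of the plasma cell, mucous, fibroblast, alveolar and neutrophil markers in the results was not tested. Of the 8 lung-defining markers, 6 were higher and 2 lower (median 0.18; Scgb1a1 0.68 rose and Cldn18 -0.32 fell the most).

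**Figure D5:**
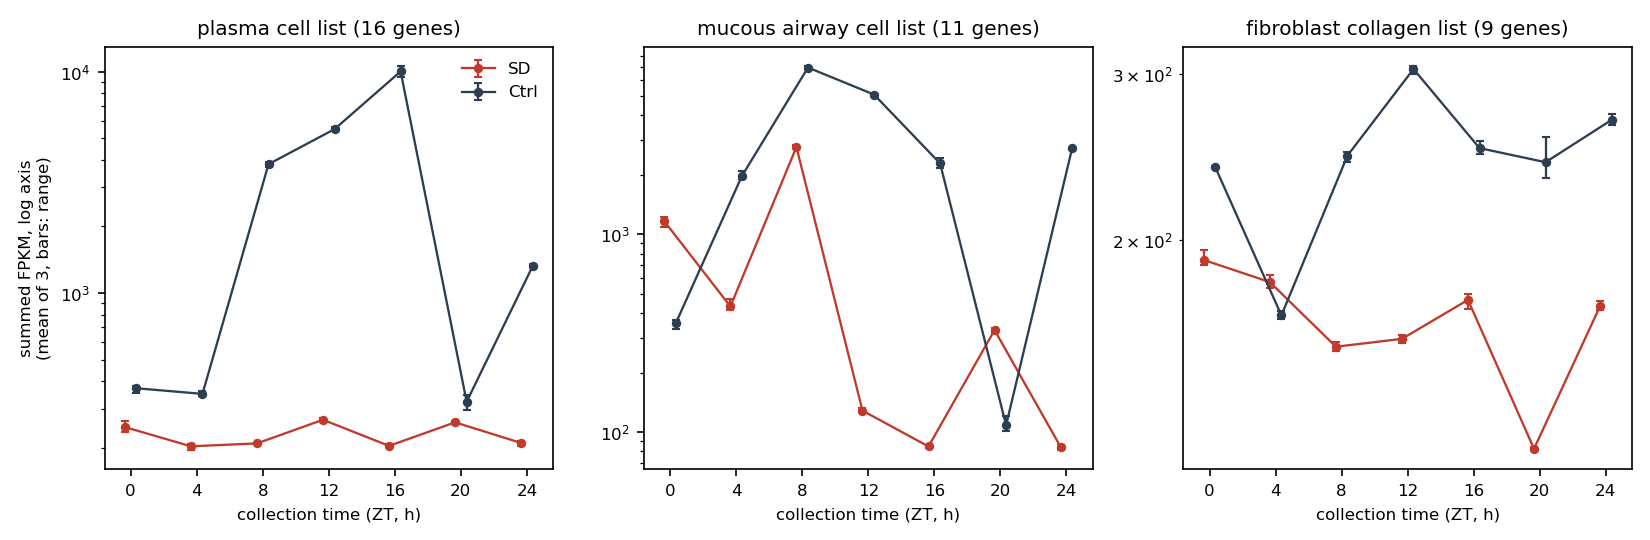
Summed FPKM (vertical axis, log scale) of the plasma cell, mucous airway and fibroblast lists by collection time (ZT in h); points are means of 3 libraries with bars from the lowest to the highest, SD in red and Ctrl in dark blue. The plasma cell sum stays between 203 and 268 FPKM in SD and reaches 10018 FPKM in Ctrl at ZT16, whereas at ZT0, ZT4 and ZT20 the Ctrl sums are 323 to 372 FPKM.

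By likeness over the 14 group means of log2(FPKM + 1), among 12321 genes with a mean of at least 1 FPKM, the genes most like Hspa5 were Hspa13 (Pearson r 0.963), Hyou1 (0.946), Prpf19 (0.925), Tmem33 (0.924) and Manf (0.913). Hspa13 and Hyou1 are HSP70 relatives of the ER. Those most like Atf4 were Ctdp1 (0.963), Dctn2 (0.953), Sars (0.951), Ybx3 (0.947) and Dtnbp1 (0.938). Ddit3 had weaker likenesses, with Nudt22 (0.853), Dhdds (0.848), Zfp637 (0.847), Gpr182 (0.842) and Phlda3 (0.837) first. For the other genes only the first is named. It was a gene of the ER lists for Hsp90b1 (Pdia3, 0.975), Calr (Hyou1, 0.958) and Creld2 (Manf, 0.981). For Pdia4 (Lmnb2, 0.974) and Sdf2l1 (Pold2, 0.966) it was in none of these lists. The same held for Herpud1 (Nampt, 0.962) and Dnajb9 (Sirt2, 0.917). Pdia4 and Sdf2l1 had a higher r with each other over the same means (0.990), a pair that this search left out. These values describe 14 means, and no p is attached.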

How the data were processed

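Lung RNA of 42 libraries (7 times, SD and Ctrl, 3 each) was sequenced; per the labels' protocols TRIzol and a NEBNext Ultra kit were used for RNA and libraries, and per the submitters' processing notes HISAT2 2.0.5, featureCounts 1.5.0-p3 and mm10 were used. The authors deposited FPKM values per gene. Their low values are whole multiples of what 1 read is worth, so reads were recovered (99.94 to 100% of values whole within 0.1), and the deposited scaling equals a median-of-ratios scaling (largest deviation 8.55e-05 in log).

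Values of 16962 genes with a mean of at least 0.5 FPKM were tested as log2(FPKM + 1), a scale that understates changes of low genes, with limma 3.58.1 (R 4.3.3; a 14-group model, two-sided, trended empirical Bayes), Benjamini-Hochberg adjusted over all of them, and called under 0.05. Rhythms were F tests of a 24 h cosine and sine. The test was tried on simulated data with spread drawn independently for each library. Variation shared by the libraries of a group was therefore not tried. Gene symbols that a spreadsheet had turned to dates (27) were restored by gene identifier. Alternatives were a pseudocount of 0.1, no filter, scaling by total reads, array weights, a block for the replicate number, leaving out times or each library, other units of spread and a one-way F test.

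The 10 genes and all lists were chosen with earlier results of these data known. Named from each other list were the 2 largest rises and falls among called genes of the averaged difference, and every sensor or factor. Likeness was named for Hspa5, Atf4 and Ddit3. The first gene for each of the others was added after the values were seen. Promoters are from RefSeq (GRCm38.p6). Python 3.11.15, pandas 2.3.3 and matplotlib 3.10.9 were used for tables and figures.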

Additional observations from a re-analysis of the deposited data

Results flagged for a closer look

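In all 10 genes the difference between SD and Ctrl itself differed between the 7 times (limma, F statistic of 6 interaction contrasts). The same test called 81.7% of all genes tested, so the call alone does not set the 10 apart. The F statistic was 380 for Herpud1, 113 for Hspa5, 98.6 for Calr, 58.8 for Pdia4, 42 for Sdf2l1, 37.6 for Hsp90b1, 21.7 for Creld2, 19.2 for Atf4, 14.8 for Ddit3 and 7.88 for Dnajb9. For Hspa5 and Calr the direction itself differed between times, since SD was the higher condition at ZT4 and the lower one at each other time. Without Ctrl replicate 2 at ZT20, the library that stood apart, the F statistic was 218 for Hspa5 and 152 for Calr.

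The change between ZT24 and ZT0 differed between SD and Ctrl by the test of that difference in 7 genes, upward in each. Of all genes, 16.8% were called in that direction. In log2 units, SD less Ctrl, it was 0.80 for Sdf2l1, 0.66 for Hsp90b1, 0.59 for Creld2, 0.58 for Hspa5, 0.49 for Calr, 0.41 for Pdia4 and 0.33 for Ddit3.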

How the results depend on the processing

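The averaged calls of the 10 genes kept their direction under every alternative run, and their side of the threshold except for Creld2 and Ddit3 with group means as units. With each of the 42 libraries left out in turn, 123 of 150 single values kept both. Without the filter on low values, 1 gene was called lower at ZT4 and 1 higher at ZT24 than at ZT0 in Ctrl. Scaled by total reads, 1 was lower at ZT4, 2 were higher at ZT24, 1 (Herpud1) had a lower change between ZT24 and ZT0 in SD than in Ctrl, and 1 (Hsp90b1) differed in rhythm; Sdf2l1 at ZT4 turned to 0.026, Ddit3 at ZT8 to -0.039, Atf4 at ZT16 to -0.041 and Creld2 at ZT24 to -0.085. With array weights 3 genes were rhythmic in SD (3909 of all genes were). Under these weights Sdf2l1 at ZT4 turned to 0.020 and Atf4 between ZT24 and ZT0 in Ctrl to -0.0078. The Ctrl rhythm of Atf4 was then no longer called (adjusted p = 0.105, limma). Without ZT24, 1 gene (Hsp90b1) differed in rhythm. With only the libraries compared, 1 gene was higher at ZT0, since Atf4 was lost. With group means as units 0 were rhythmic in Ctrl (limma, 385 of all genes were). A one-way F test called 10 in SD, with no share of all genes given. The causes were not tested.

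With libraries left out, counts ran from 0 to 3 for a different rhythm, 1 to 2 for lower at ZT4, 0 to 1 for a lower change between ZT24 and ZT0 in SD, and 1 to 3 for higher at ZT24 in Ctrl. Values near 0 changed sign: Atf4 ran from -0.0028 to 0.042 at ZT16 and from -0.029 to 0.017 between ZT24 and ZT0 in Ctrl. Creld2 ran from -0.041 to 0.068 at ZT24, from -0.016 to 0.052 at ZT4 and from -0.0055 to 0.10 between ZT24 and ZT0 in Ctrl. Ddit3 ran from -0.080 to 0.0076 at ZT20, Hsp90b1 from -0.042 to 0.024 at ZT24 and from -0.060 to 0.0069 between ZT24 and ZT0 in Ctrl, and Sdf2l1 from -0.052 to 0.054 at ZT4.

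Same-numbered libraries did not deviate together (21 pairs, r from -0.049 to 0.08, 0 over 0.1), so the numbers do not pair them. With the replicate number as a block, 149 of 150 values kept their side, and the difference of the Atf4 change between ZT24 and ZT0 was called (0.13, adjusted p = 0.0462, limma).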

Other observations

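The cytosolic and mitochondrial heat shock genes varied more by time than their averaged count shows. Of 14, limma called 0 higher and 9 lower in SD at ZT0 (median -0.34), 8 higher and 3 lower at ZT4 (median 0.19), 2 higher and 12 lower at ZT12 (median -0.51) and 10 higher and 1 lower at ZT24 (median 0.35). These counts were the same when scaled by total reads. As deposited, 18% of all genes were called higher and 19.7% lower at ZT0, and 19.2% and 20.1% at ZT4. These shares were 24.4% and 24.4% at ZT12, 33% and 28.4% at ZT20, and 24.4% and 22.3% at ZT24. The translocon and signal peptidase genes went the same way between the ends of the day, with 0 higher and 12 lower of 15 at ZT0 and 7 higher and 3 lower at ZT24, but scaled by total reads they were 2 higher and 5 lower at ZT24. The PERK, ATF4 and CHOP targets had more higher than lower calls at all 7 times, with 9 higher and 6 lower of 24 at ZT0 and 14 higher and 5 lower at ZT24; scaled by total reads they were even at ZT20, with 9 each way. Genes of ER-associated degradation were 7 higher and 2 lower of 15 at ZT20, the time of the highest Herpud1 level in SD, but 3 higher and 7 lower when scaled by total reads.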
